A study of Mus musculus with 15 samples.

Results

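Complement is a set of plasma and cell surface proteins with which the body marks microbes, dead cells and immune complexes for removal, and 9 genes of it were followed through the healing of mouse skin wounds. They were taken by symbol: the recognition chains C1qa, C1qb and C1qc, the classical pathway components C4b and C2, the central component C3, the alternative pathway proteases Cfb and Cfd, and the receptor C3ar1. All 9 had a row among 30281 named genes, and all 9 passed the filter on low counts that left 17136 genes for testing. RNA of skin from C57BL/6 mice was sequenced at day 0, 1, 3, 5 and 7 of a wounding course, with 3 libraries per day and 15 in all. The labels give the wound as the stress of every library, day 0 included, name no allele or agent, and do not tie the libraries of a day to separate animals, so the p-values cover spread that may be technical.

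Complement is started along a classical pathway, in which C1q bound to antibody or damaged cells activates proteases that cleave C4 and C2, along a lectin pathway with other recognition proteins, and along an alternative pathway, in which factor D cleaves factor B bound to C3 fragments. The pathways meet in the cleavage of C3, whose large fragment tags surfaces for uptake and whose small fragment C3a attracts and activates myeloid cells through the receptor encoded by C3ar1. The liver makes most plasma complement, but macrophages are a main source of C1q in tissues, factor D is abundant in fat cells, and skin cells also express several components.

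The RefSeq promoter table (GRCm38.p6) held 5 of the 9 genes, C1qb, C1qc, C3, C3ar1 and Cfd. The 250 bases before the annotated start are printed for C1qb and C1qc, neighbouring genes whose values moved together, and for C3, where the pathways meet. C1qb lies at chr4:136886201-136886450, C1qc at chr4:136892915-136893164 and C3 at chr17:57228137-57228386, all on the minus strand and printed along the gene. In C1qb and C1qc the capitals mark GAGGAA, the core bound by the myeloid factor PU.1, or its reverse complement, and in C3 they mark TTNNGNAA, a short form of the motif of C/EBP factors, which act in acute phase responses.
C1qb: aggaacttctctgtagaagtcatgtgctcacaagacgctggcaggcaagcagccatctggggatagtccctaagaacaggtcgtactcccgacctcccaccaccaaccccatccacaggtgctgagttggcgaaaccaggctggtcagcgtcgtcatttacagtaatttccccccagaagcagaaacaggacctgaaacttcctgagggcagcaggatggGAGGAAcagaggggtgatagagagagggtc
C1qc: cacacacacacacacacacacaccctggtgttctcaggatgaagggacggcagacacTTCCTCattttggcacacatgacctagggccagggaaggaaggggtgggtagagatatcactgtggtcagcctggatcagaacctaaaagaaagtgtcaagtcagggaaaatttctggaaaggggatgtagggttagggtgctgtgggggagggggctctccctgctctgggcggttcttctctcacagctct
C3: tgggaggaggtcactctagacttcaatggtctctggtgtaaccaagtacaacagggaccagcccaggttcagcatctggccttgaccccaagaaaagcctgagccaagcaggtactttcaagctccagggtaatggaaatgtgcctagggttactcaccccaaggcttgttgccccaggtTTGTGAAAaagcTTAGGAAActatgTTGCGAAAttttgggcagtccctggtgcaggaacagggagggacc
GAGGAA was found at positions -30 to -25 from the start in C1qb and, on the opposite strand, at -193 to -188 in C1qc. The C/EBP letters were found at 3 places in C3, at -70 to -63, -58 to -51 and -45 to -38, the last of these matching on both strands. Searched on both strands over the 32851 windows of the same length in the table, GAGGAA was in 23.3% and TTNNGNAA in 36.8%. TTNNGNAA also matched 1 time in C1qc. C3ar1 and Cfd held neither letter string in this window, and no match of one motif overlapped that of the other.

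Libraries held between 38062562 and 60450396 estimated counts, and the members had at least 1444 counts (C2) in each library, so counting error was small beside the fitted common biological coefficient of variation of 30.9%. The epidermal keratin Krt5, which marks the tissue as skin, was at 883 CPM (counts per 1000000, with libraries scaled by TMM, a trimmed mean of log ratios) or more in every library. Although the skin was cleared of muscle and fat before freezing, per the labels, 12 adipocyte markers summed to between 1500 and 2660 CPM and 6 skeletal muscle markers to between 2090 and 9640 CPM, while 8 hepatocyte markers summed to at most 20.7 CPM. Day 5 replicate 2 and day 7 replicate 3 stood apart by their hair keratins, at 1.26% and 1.57% of all counts, while none of the other 13 libraries exceeded 0.142%. Day 0 replicate 1 also stood apart, with inflammatory cytokines summing to 185 CPM, beside 55.3 CPM in day 0 replicate 2 and 50.5 CPM in day 0 replicate 3. Day 5 replicate 2 and day 7 replicate 3 were among the 3 lowest libraries for all 9 members, so results with and without them are given below.

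The chains of C1q were highest at day 0 and day 3 and lowest at day 7. C1qa was at 297, 528 and 576 CPM at day 0, 230, 224 and 331 CPM at day 1, 406, 477 and 364 CPM at day 3, 310, 186 and 326 CPM at day 5 and 284, 222 and 201 CPM at day 7. C1qb was at 360, 535 and 602 CPM at day 0, 302, 317 and 416 CPM at day 1, 477, 538 and 433 CPM at day 3, 349, 212 and 363 CPM at day 5 and 325, 265 and 213 CPM at day 7. C1qc was at 275, 418 and 459 CPM at day 0, 216, 220 and 312 CPM at day 1, 373, 372 and 338 CPM at day 3, 284, 170 and 303 CPM at day 5 and 244, 203 and 174 CPM at day 7. In each chain day 0 replicate 1 lay far under the other day 0 libraries, within the range of the later days, and day 5 replicate 2 was the lowest of the 15 libraries. In the order of day means, day 3 lay clear of the next lower day in all 3 chains, while the other neighbouring days overlapped.

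The 3 chains made up similar parts of their sum in every library. Of their summed CPM, C1qb made up 36.1% to 41.6%, C1qa 29.5% to 35.6% and C1qc 26.8% to 30.6%. Day 1 stood apart within these ranges. Its C1qb share, 39.3% to 41.6%, lay above that of the other 12 libraries, and its C1qa share, 29.5% to 31.2%, lay below. The longest stretch that could be aligned between transcripts of the chains was 78 bases at 75.6% identity, in C1qb and C1qc.

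**Figure D1:**
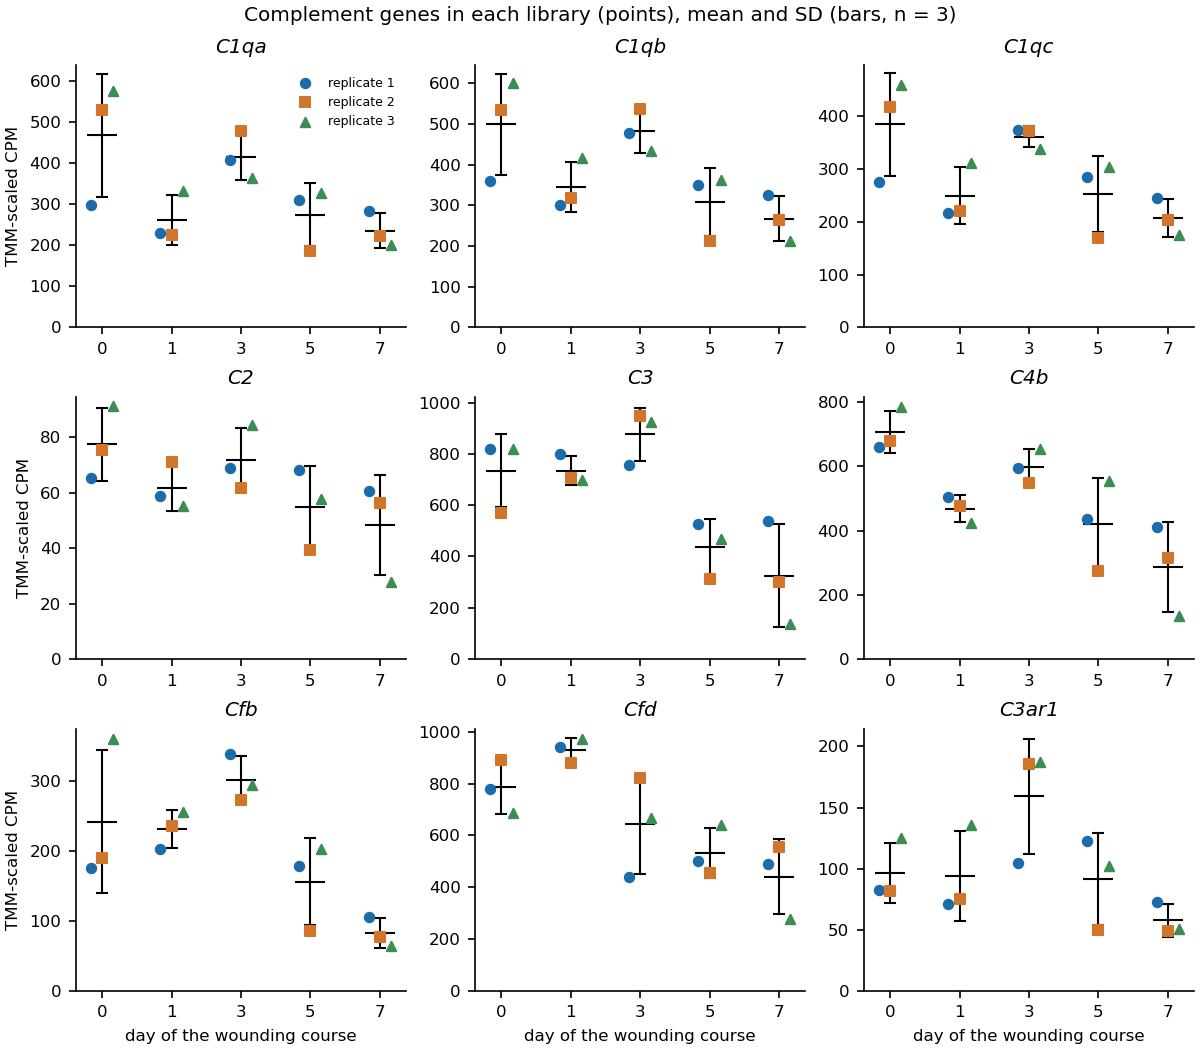
TMM-scaled CPM (vertical axis, from 0) of the 9 complement genes by day of the wounding course (horizontal axis); points are single libraries, bars are mean and SD of 3 libraries. The 3 C1q chains share one shape with high day 0 and day 3 values, C3, Cfb and C3ar1 have their highest mean at day 3, Cfd has it at day 1, and all 9 genes have their lowest mean at day 7.

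C4b encodes component C4 of the classical and lectin pathways and C2 the protease that joins it to cleave C3. C4b was at 661, 678 and 784 CPM at day 0, 505, 477 and 424 CPM at day 1, 594, 549 and 656 CPM at day 3, 436, 274 and 556 CPM at day 5 and 411, 314 and 134 CPM at day 7. Every library of the later days lay below every day 0 library, with day 7 replicate 3 the lowest. C4b is 95.9% identical over 5378 bases to its copy C4a, a gene with no row here, so its counts are uncertain. C2 was at 65.4, 75.6 and 91.4 CPM at day 0, 58.8, 71.2 and 55.4 CPM at day 1, 69.0, 61.9 and 84.6 CPM at day 3, 68.2, 39.3 and 57.6 CPM at day 5 and 60.8, 56.5 and 27.9 CPM at day 7. All neighbouring days overlapped in C2, the member with the flattest course.

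C3, the component on which the pathways converge, was at 818, 569 and 818 CPM at day 0, 800, 704 and 700 CPM at day 1, 758, 947 and 923 CPM at day 3, 525, 313 and 468 CPM at day 5 and 538, 299 and 138 CPM at day 7. All libraries of day 5 and day 7 lay below all libraries of the first 3 days. Its 6.87-fold range between the highest and the lowest library was the widest of the 9 members.

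Cfb encodes factor B, the protease of the alternative pathway convertase, and Cfd encodes factor D, also called adipsin, which activates it. Cfb was at 176, 190 and 360 CPM at day 0, 203, 236 and 256 CPM at day 1, 339, 273 and 294 CPM at day 3, 179, 85.2 and 203 CPM at day 5 and 106, 77.7 and 64.1 CPM at day 7. The day 7 libraries lay below all libraries of days 0, 1 and 3, and among day 0 libraries replicate 3 was far above the others. Cfd was at 780, 889 and 685 CPM at day 0, 942, 881 and 970 CPM at day 1, 439, 823 and 665 CPM at day 3, 501, 456 and 641 CPM at day 5 and 490, 554 and 277 CPM at day 7. Cfd was thus the one member with its highest mean at day 1, and in the order of its day means, days 1, 0, 3, 5 and 7, each day overlapped the next.

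Cfb and C2 are neighbours that encode related proteases of the alternative and the classical convertase. The ratio of Cfb to C2 in CPM was 3.04 ± 0.773 at day 0, 3.80 ± 0.708 at day 1, 4.27 ± 0.727 at day 3, 2.77 ± 0.686 at day 5 and 1.80 ± 0.468 at day 7 (SD, n = 3 each). Each day 7 library (1.37 to 2.30) lay below each day 0 library (2.51 to 3.93). A read-through gene, Gm20547, shares exact sequence with both over 2248 bases of Cfb and 1051 bases of C2 and received 0.141% to 5.63% of the counts of the 3 genes together. C2 also overlaps Zbtb12 on the opposite strand, and the counting is not stated to use strand.

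C3ar1, the receptor for C3a on macrophages and other myeloid cells, was at 82.3, 81.9 and 125 CPM at day 0, 70.7, 75.0 and 136 CPM at day 1, 105, 186 and 187 CPM at day 3, 123, 49.5 and 102 CPM at day 5 and 72.9, 49.3 and 50.6 CPM at day 7. Its highest libraries were day 3 replicates 2 and 3, but day 3 replicate 1 lay within the range of the other days.

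The levels of the 9 genes were ordered per length, as CPM per 1000 bases of the longest annotated transcript (GENCODE M21), since no source used here gives the transcripts the authors counted. On this scale, at day 0 and in the order of the level, Cfd was at 850 ± 111, C1qb at 459 ± 115, C1qa at 449 ± 143, C1qc at 319 ± 80.0 and C3 at 143 ± 27.8. Below these came C4b at 132 ± 12.4, Cfb at 88.0 ± 37.1, C2 at 29.3 ± 4.96 and C3ar1 at 22.4 ± 5.76 CPM per 1000 bases (SD, n = 3 each). Of neighbours in this order, Cfd and C1qb, C1qc and C3, and Cfb and C2 were apart by more than their SDs, and the others were not.

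The comparison of day 7 with day 0 sets the last day sampled against the first. All 9 complement genes had a log2 fold change below 0 at day 7, beside 48.4% of all genes tested, and 5 of them passed the test, Cfb, C4b and the 3 C1q chains. In none of the 9 did a day 7 library reach the lowest day 0 library, against 15.3% of all genes tested with every day 7 library below every day 0 library. With the quasi-likelihood test of edgeR, Benjamini-Hochberg adjusted over all 17136 genes, 5 of 9 members were called lower and 0 higher at an adjusted p under 0.05, where 3.94% of all genes were called lower and 7.05% in either direction. The median log2 fold change of the 9 was -0.90, beside 0.017 for all genes.

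Cfb fell 2.93-fold, to 82.5 ± 21.2 CPM at day 7 against 242 ± 102 CPM at day 0 (SD, n = 3), with a log2 fold change of -1.55 ± 0.33 (SE, edgeR adjusted p = 0.0203). C4b fell by 1.30 ± 0.33 on the log2 scale, to 287 ± 141 CPM at day 7 against 708 ± 66.7 CPM at day 0 (edgeR adjusted p = 0.0355). The chains of C1q fell nearly alike. C1qa averaged 236 ± 43.2 CPM at day 7 and 467 ± 149 CPM at day 0, a log2 fold change of -0.99 ± 0.27 (edgeR adjusted p = 0.0483). C1qb averaged 268 ± 56.0 CPM at day 7 and 499 ± 125 CPM at day 0, a log2 fold change of -0.90 ± 0.24 (edgeR adjusted p = 0.0444). C1qc averaged 207 ± 34.8 CPM at day 7 and 384 ± 96.3 CPM at day 0, a log2 fold change of -0.89 ± 0.24 (edgeR adjusted p = 0.0449).

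The other 4 members did not pass. C3 averaged 325 ± 201 CPM at day 7 and 735 ± 143 CPM at day 0, with a log2 fold change of -1.18 ± 0.37 (edgeR adjusted p = 0.0674), and Cfd averaged 441 ± 145 CPM at day 7 and 784 ± 102 CPM at day 0, with -0.83 ± 0.26 (edgeR adjusted p = 0.0673). For C2 the log2 fold change was -0.68 ± 0.27 (edgeR adjusted p = 0.128), and for C3ar1 it was -0.74 ± 0.36 (edgeR adjusted p = 0.195). The day 7 libraries of C3 were far apart, between 138 CPM in replicate 3 and 538 CPM in replicate 1. At an unadjusted p under 0.05, 8 of 9 members were lower, all but C3ar1, beside 14.4% of all genes.

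**Figure D2:**
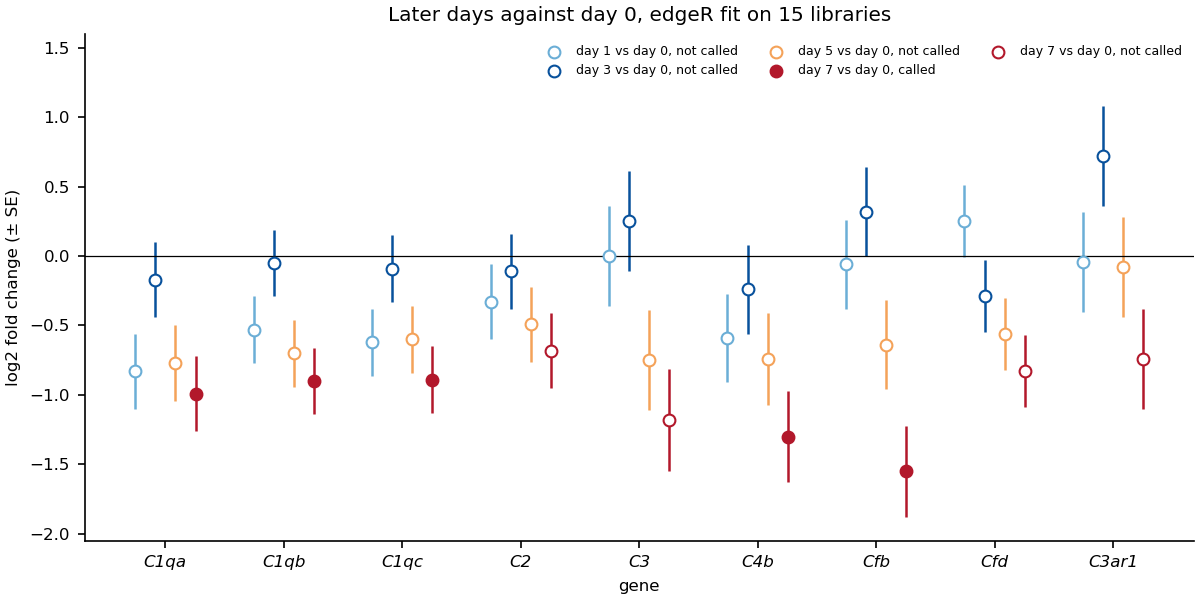
Log2 fold change of each complement gene at days 1, 3, 5 and 7 over day 0 (vertical axis, with SE bars) from edgeR's fit on 15 libraries; filled points have an adjusted p under 0.05. Only day 7 has filled points, for C1qa, C1qb, C1qc, C4b and Cfb, and day 3 values lie between -0.29 (Cfd) and 0.72 (C3ar1).

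Each of the 5 calls at day 7 was lost in at least 1 fit on fewer libraries, and no fit turned a direction. With the replicate number as a block, Cfb alone was called (log2 fold change -1.5, edgeR adjusted p = 0.0328), with 4.8% of all genes called. The other 4 had an edgeR adjusted p between 0.0558 (C4b) and 0.0792 (C1qa). The block was fitted because deviations of same-numbered libraries of these days correlated at 0.14, 0.13 and 0.41. Over the 8 comparisons of days made here such correlations ran from -0.73 to 0.49, so a pairing is not shown. Leaving out day 0 replicate 3, day 7 replicate 2 or day 7 replicate 3 ended all 5 calls, and without day 0 replicate 2 Cfb alone was called (edgeR adjusted p = 0.0424). Calls were lost over all genes as well. In the order named, these fits called 1.6%, 2.44%, 1.66% and 1.67% of all genes, where all libraries gave 7.05%. Without day 0 replicate 1 the call of C4b was lost (edgeR adjusted p = 0.0526), with 6.31% of all genes called. Without day 7 replicate 1 C3 was called as well, at -1.75 (edgeR adjusted p = 0.0110), with 11.9% of all genes called. Over these 6 fits the log2 fold change ran between -1.77 and -1.13 for Cfb, -1.66 and -0.95 for C4b, -1.23 and -0.79 for C1qa, -1.09 and -0.72 for C1qb and -1.08 and -0.73 for C1qc. Without the hair-keratin-rich libraries day 5 replicate 2 and day 7 replicate 3, C4b (-0.96, edgeR adjusted p = 0.0130) and Cfb (-1.40, edgeR adjusted p = 0.0263) were called. In that fit C1qa, C1qb and C1qc were at -0.88, -0.76 and -0.78 with an edgeR adjusted p of 0.0920, 0.0699 and 0.0669. It called 4.54% of all genes, where all libraries gave 7.05%. Against day 0 replicate 1 alone, C1qa was at -0.31, Cfb at -1.07 and C3 at -1.32. These are values only, since that library was picked for standing apart and a single library gives no spread of its own.

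**Figure D3:**
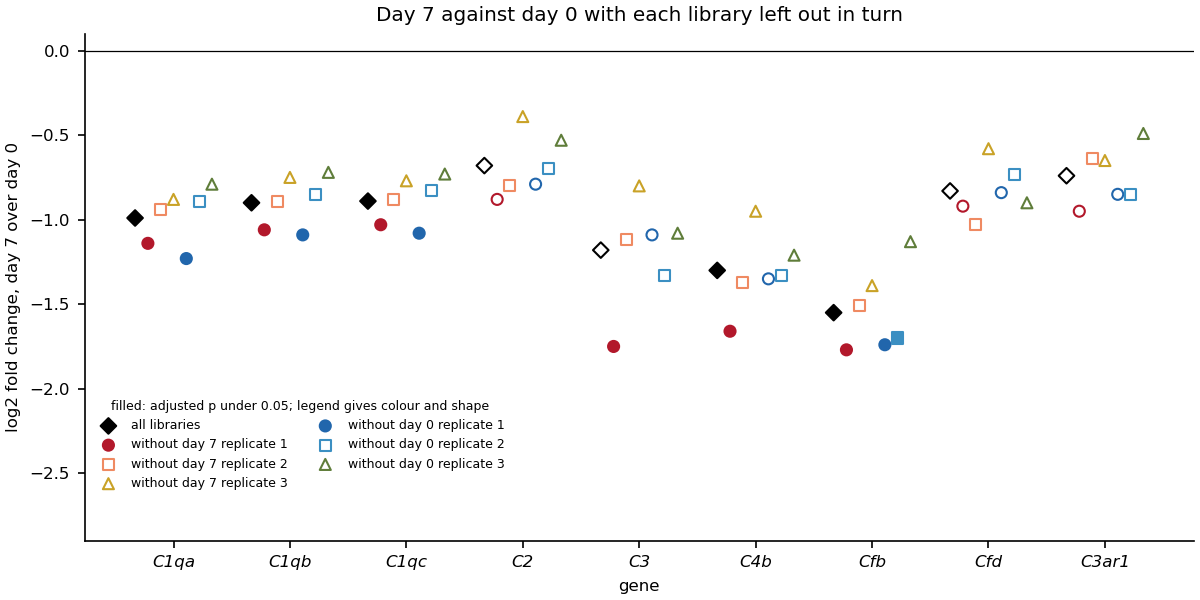
Log2 fold change of each complement gene at day 7 over day 0 (vertical axis) with all libraries and with each of the 6 libraries of these days left out in turn; filled points have an adjusted p under 0.05. Every point lies below 0, and filled points are found with all libraries, without replicate 1 of either day and, for Cfb, without day 0 replicate 2.

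Markers of several cell types, among them cells that express complement, were measured in the same libraries. At day 7 against day 0, edgeR called 3.94% of all genes lower. Of 12 general macrophage markers 3 fell at day 7 against day 0 (Cd68, Fcgr1 and Itgam), 9 did not pass and none rose, and their summed level was 1990 to 3090 CPM at day 7 and 2490 to 3870 CPM at day 0. Of 12 markers of resident tissue macrophages 9 fell, among them the scavenger receptor Cd163 (log2 fold change -1.72 ± 0.43, edgeR adjusted p = 0.0352), the folate receptor Folr2 (-1.93 ± 0.33, edgeR adjusted p = 0.0101) and the lectin Cd209f (-2.42 ± 0.32, edgeR adjusted p = 0.00523). Their summed level was 832 to 1640 CPM at day 7 and 2770 to 3450 CPM at day 0, with no overlap. Of 8 markers of inflammatory monocytes 5 fell, with sums of 393 to 461 CPM at day 7 and 650 to 937 CPM at day 0, and of 12 target genes of interferon gamma 5 fell, with sums of 344 to 497 CPM at day 7 and 684 to 1090 CPM at day 0. None of the macrophage markers was at 0 in any library. Sums that did not overlap were not confined to myeloid markers. The sum of 10 fibroblast markers was 28500 to 60000 CPM at day 7 and 60300 to 71400 CPM at day 0. That of 6 skeletal muscle markers was 2090 to 5780 CPM at day 7 and 6180 to 9640 CPM at day 0. Of these, 0 of 10 and 1 of 6 markers were called lower. The sums of keratinocyte, endothelial and neutrophil markers overlapped between the days. In bulk skin, fewer cells of a type and less RNA per cell cannot be told apart, and the part of these cell populations in the fall of the complement genes was not tested.

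The ratio of C1q to the general macrophage markers depended on Lyz2, which alone made up 44.5% to 66.6% of the sum of the 12 markers. The summed CPM of the 3 chains was 41.5% ± 3.62 of the marker sum at day 0, 30.9% ± 1.61 at day 1, 31.2% ± 2.46 at day 3, 32.4% ± 2.52 at day 5 and 28.1% ± 1.29 at day 7 (SD, n = 3 each), with each later library below each day 0 library. With Lyz2 left out, an alternative chosen after seeing the data, it was 91.5% ± 15.8 at day 0, 57.7% ± 4.80 at day 1, 72.5% ± 6.47 at day 3, 79.0% ± 5.45 at day 5 and 79.7% ± 3.36 at day 7. On that scale the day 7 libraries (76.2% to 82.9%) overlapped the day 0 libraries (74.7% to 106%), as did those of days 3 and 5, and the day 1 libraries (52.5% to 62.0%) lay below them. Adipocyte markers did not pass at day 7 against day 0 (0 of 12 by edgeR, 5 of 12 lower at an unadjusted p under 0.05, median log2 fold change -0.68), and their sum was 1520 to 1800 CPM at day 7 and 1710 to 2380 CPM at day 0, beside the adipsin gene Cfd.

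**Figure D4:**
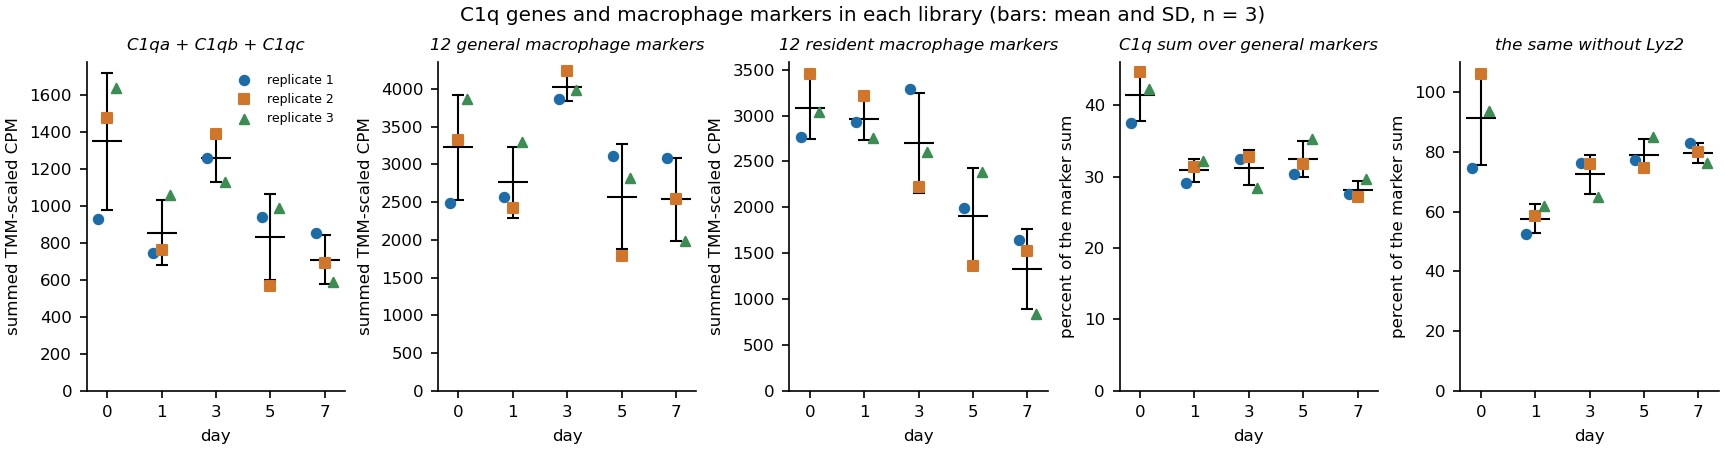
Summed TMM-scaled CPM of the 3 C1q genes, of 12 general and of 12 resident macrophage markers, and the C1q sum as a percent of the general marker sum with and without Lyz2 (vertical axes, from 0), by day (horizontal axes); points are libraries, bars are mean and SD of 3. The later days lie below day 0 in the ratio with Lyz2, days 3, 5 and 7 overlap day 0 in the ratio without it, and the resident marker sum is lowest at day 7.

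At day 1 against day 0, the first day after the start, no complement gene passed the test, with 0 of 9 called by edgeR and 7.58% of all genes called. C1qa was the member furthest down. It averaged 262 ± 59.9 CPM at day 1 and 467 ± 149 CPM at day 0 (log2 fold change -0.83 ± 0.27, edgeR adjusted p = 0.0755), C1qb had a log2 fold change of -0.53 ± 0.24 (edgeR adjusted p = 0.175) and C1qc of -0.62 ± 0.24 (edgeR adjusted p = 0.121). These 3 had an unadjusted p under 0.05, beside 12.9% of all genes lower at that level. DESeq2 called C1qa, beside 16.3% of all genes, and limma-voom called none, beside 7.43%. Without day 0 replicate 1, edgeR called C1qa and C1qc, but the share of all genes called also rose, to 13.8%. C4b was the one member with every day 1 library below every day 0 library (469 ± 41.4 CPM at day 1 and 708 ± 66.7 CPM at day 0, log2 fold change -0.59 ± 0.32, edgeR adjusted p = 0.259), beside 18% of all genes. C3, Cfb and C3ar1 had log2 fold changes of 0.00, -0.06 and -0.04, and Cfd one of 0.25 ± 0.26. In the same comparison 8 of 10 neutrophil markers and 3 of 10 inflammatory cytokines rose, beside 4.22% of all genes called higher.

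At day 3 against day 0, edgeR called 0 of 9 members, with 0.788% of all genes called, and none had an unadjusted p under 0.05, where 15.8% of all genes did. DESeq2 and limma-voom also called 0, beside 5.5% and 0.438% of all genes. The largest value was that of C3ar1, at 159 ± 47.0 CPM at day 3 and 96.4 ± 24.8 CPM at day 0 (log2 fold change 0.72 ± 0.36, edgeR adjusted p = 0.356). Cfb was at 302 ± 33.3 CPM at day 3 and 242 ± 102 CPM at day 0, and C3 at 876 ± 103 CPM at day 3 and 735 ± 143 CPM at day 0, and both overlapped between the days.

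At day 5 against day 0 all 9 members had a log2 fold change below 0, beside 48.4% of all genes, but edgeR called 0 of 9, with 0.502% of all genes called. At an unadjusted p under 0.05 there were 5, the 3 C1q chains, C4b and Cfd, all lower, beside 10.7% of all genes. DESeq2 and limma-voom called 0 members, where they called 6.77% and 0.21% of all genes. C3, C4b and Cfd were the 3 members with every day 5 library below every day 0 library, beside 13.8% of all genes. C3 averaged 436 ± 110 CPM at day 5 and 735 ± 143 CPM at day 0, with a log2 fold change of -0.75 ± 0.36 (edgeR adjusted p = 0.271), and C1qa had one of -0.77 ± 0.27 (edgeR adjusted p = 0.166). Day 5 replicate 2 was the lowest of its day in every member, and without it no member had an unadjusted p under 0.05. With day 7 replicate 3 left out as well, 3 members had an unadjusted p under 0.05. That fit, chosen after seeing the data, called 0 members, beside 1.77% of all genes. The share of all genes at the unadjusted level was not counted in either fit. The comparisons with day 0 share its 3 libraries, so they are not independent of each other.

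Between successive days edgeR called 0 of 9 members in each comparison, where 0.00584% of all genes were called at day 3 against day 1, 0.0233% at day 5 against day 3 and 0.00584% at day 7 against day 5. Members with an unadjusted p under 0.05 numbered 2 at day 3 against day 1, 5 at day 5 against day 3, all lower, and 1 at day 7 against day 5, also lower, beside 12.8% of all genes in either direction, 7.95% lower and 4.42% lower. DESeq2 and limma-voom called 0 in each. In the same order DESeq2 called 2.71%, 3.03% and 0.881% of all genes, and limma-voom 0.0117%, 0.0233% and 0.0175%. At day 3 all libraries of C1qa, C1qb, C1qc, C4b and Cfb lay above all day 1 libraries, beside 11.6% of all genes. All libraries of Cfd lay below them, beside 13.2%. C1qa averaged 416 ± 57.3 CPM at day 3 and 262 ± 59.9 CPM at day 1 (log2 fold change 0.67 ± 0.27, edgeR adjusted p = 0.328). At day 5 all libraries of the 3 C1q chains, C3 and Cfb lay below all day 3 libraries, beside 11.9% of all genes. C3 averaged 436 ± 110 CPM at day 5 and 876 ± 103 CPM at day 3, with a log2 fold change of -1.01 ± 0.36 (edgeR adjusted p = 0.262), and Cfb had one of -0.96 ± 0.32 (edgeR adjusted p = 0.246). At day 7 against day 5 libraries overlapped in all 9 members, and the largest value was that of Cfb, at 82.5 ± 21.2 CPM at day 7 and 156 ± 62.2 CPM at day 5 (log2 fold change -0.92 ± 0.32, edgeR adjusted p = 0.452).

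Set against day 1 instead of day 0, the members that fell at day 7 were C3, Cfb and Cfd, 3 of 9 by edgeR's test, with 8.59% of all genes called lower and 14.3% in either direction. Cfb averaged 82.5 ± 21.2 CPM at day 7 and 232 ± 26.5 CPM at day 1, a log2 fold change of -1.49 ± 0.33 (edgeR adjusted p = 0.0112). Cfd averaged 441 ± 145 CPM at day 7 and 931 ± 45.7 CPM at day 1, a log2 fold change of -1.08 ± 0.26 (edgeR adjusted p = 0.0171). C3 averaged 325 ± 201 CPM at day 7 and 735 ± 56.7 CPM at day 1, a log2 fold change of -1.18 ± 0.37 (edgeR adjusted p = 0.0494). In these 3 genes and in C4b the day 7 libraries lay below all day 1 libraries, beside 17.2% of all genes. The C1q chains overlapped between the days, with log2 fold changes of -0.15 ± 0.27 for C1qa, -0.36 ± 0.24 for C1qb and -0.27 ± 0.24 for C1qc (edgeR adjusted p = 0.738, 0.321 and 0.469). Cfb was called in all 6 fits that left out a library of these days (edgeR adjusted p = 0.0146 to 0.0481). The call of Cfd was lost without day 1 replicate 1 (edgeR adjusted p = 0.0532). That of C3 was lost in 5 of the 6 fits and kept without day 7 replicate 1, with an edgeR adjusted p between 0.00703 and 0.133. The 6 fits called 6.51% to 13.4% of all genes, where all libraries gave 14.3%.

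Over all 5 days together, an F test in the same fit called 1 of 9 members, Cfb (F = 9.16, edgeR adjusted p = 0.0185), with 13.9% of all genes called. The C1q chains, C3 and Cfd had an edgeR adjusted p between 0.0552 and 0.0638, C4b one of 0.0782, C3ar1 one of 0.0885 and C2 one of 0.257. At an unadjusted p under 0.05 there were 8, all but C2, beside 35.2% of all genes. DESeq2's likelihood ratio test called those 8, beside 34.2% of all genes, and limma-voom called 2, C3 and Cfb, beside 12.8%. The call of Cfb was lost without day 7 replicate 2, when no member and 8.19% of all genes were called.

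Other genes of the pathway were followed as a list of 50, of which 49 had a row and 42 were tested: 12 that start or amplify the cascade, 6 of the terminal pathway that forms pores, 15 regulators and 9 receptors. At day 7 against day 0, edgeR called 8 lower and 2 higher of the 42, beside the 3.94% lower and 3.1% higher of all genes. Among starters 5 fell, 7 did not pass and none rose. In the terminal pathway 1 fell and 1 rose, among regulators 1 fell and 1 rose, and among receptors 1 fell. At day 5 against day 0, 3 fell, beside 0.292% of all genes, and Cfp, Fcna and Itgam were these 3 and among the 8 at day 7. At day 1 against day 0, 1 rose and 2 fell, beside 4.22% of all genes higher and 3.36% lower, and at day 3 against day 0 and between successive days edgeR called 0 of 42, with 10, 3, 8 and 4 at an unadjusted p under 0.05, beside 15.8%, 12.8%, 15.1% and 9.18% of all genes. DESeq2 called 4, 1, 6 and 0 of the list, beside 5.5%, 2.71%, 3.03% and 0.881% of all genes.

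Cfp encodes properdin, which stabilises the alternative convertase. It was at 161, 196 and 211 CPM at day 0, 156, 165 and 175 CPM at day 1, 176, 190 and 176 CPM at day 3, 104, 66.4 and 91.9 CPM at day 5 and 78.3, 64.8 and 59.0 CPM at day 7. All 6 libraries of day 5 and day 7 lay below all 9 earlier ones. Cfp fell by 1.49 ± 0.16 on the log2 scale at day 7 (edgeR adjusted p = 0.00243) and by 1.11 ± 0.16 at day 5 (edgeR adjusted p = 0.0177), both against day 0. With 1 library of the days compared left out in turn, its call at day 7 held in all 6 fits and that at day 5 in 2 of 6. The day 5 call was lost without day 0 replicate 2, day 0 replicate 3, day 5 replicate 1 or day 5 replicate 3. Each of those fits called at most 0.0401% of all genes, where all libraries gave 0.502%.

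Fcna encodes ficolin A, a recognition protein of the lectin pathway expressed by macrophages in mice. It was at 35.7, 43.2 and 41.4 CPM at day 0, 19.9, 14.6 and 26.1 CPM at day 1, 20.3, 15.9 and 16.3 CPM at day 3, 14.5, 8.04 and 12.7 CPM at day 5 and 10.2, 7.91 and 4.16 CPM at day 7. Every later library lay below every day 0 library, and the day 7 libraries below those of days 1 and 3. Fcna fell by 2.44 ± 0.32 on the log2 scale at day 7 (edgeR adjusted p = 0.00474) and by 1.77 ± 0.31 at day 5 (edgeR adjusted p = 0.0364), both against day 0. The call of Fcna at day 7 held in all 6 fits with a library left out, and that at day 5 was lost with the replicate block and in 5 of 6 fits, all but the one without day 0 replicate 1. The call of Itgam at day 5 was lost in the same fits. Itgam encodes a chain of complement receptor 3, which binds C3 fragments on myeloid cells, and is also one of the general macrophage markers above. It was at 163, 114 and 170 CPM at day 0, 245, 182 and 223 CPM at day 1, 148, 201 and 195 CPM at day 3, 74.0, 60.8 and 67.0 CPM at day 5 and 68.8, 36.3 and 53.2 CPM at day 7. It fell by 1.5 ± 0.23 on the log2 scale at day 7 against day 0 (edgeR adjusted p = 0.00832), and by 2.04 ± 0.23 at day 7 against day 1 (edgeR adjusted p = 0.000518).

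**Figure D5:**
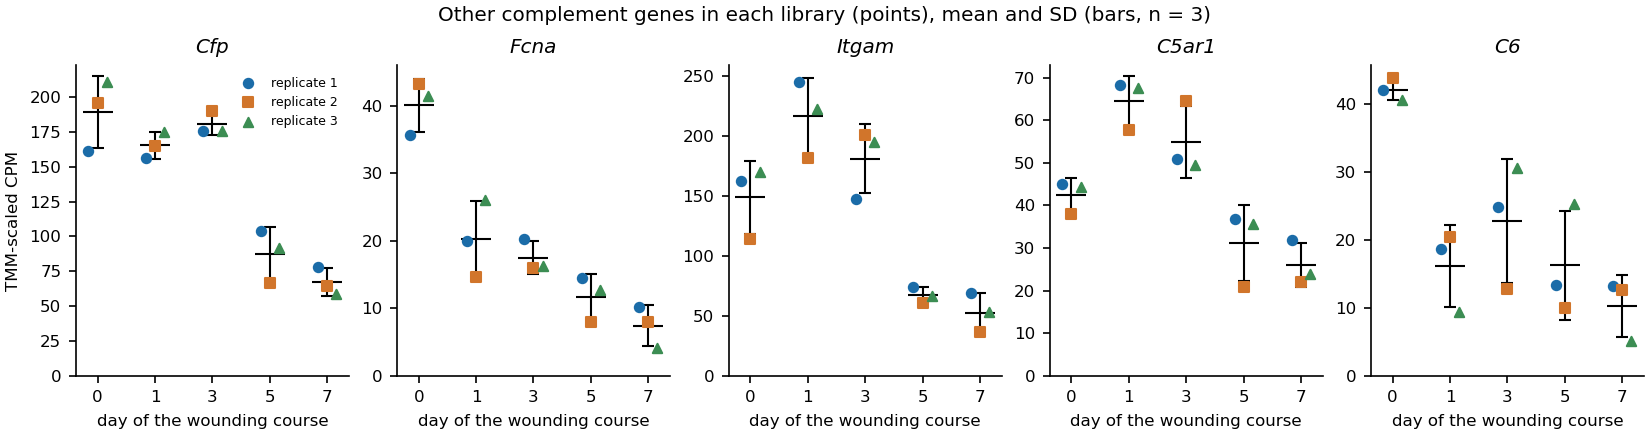
TMM-scaled CPM (vertical axis, from 0) of 5 other complement genes by day of the wounding course (horizontal axis); points are single libraries, bars are mean and SD of 3 libraries. Cfp and Itgam are lower in all day 5 and day 7 libraries than in all earlier ones, and Fcna and C6 are highest in the day 0 libraries.

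C6, of the terminal pathway, was chosen for description with its values known and was at 13.2, 12.6 and 5.05 CPM at day 7 and 42.0, 43.7 and 40.5 CPM at day 0, with no overlap (log2 fold change -2.03 ± 0.45, edgeR adjusted p = 0.0241). This call was lost without day 0 replicate 2, day 0 replicate 3, day 7 replicate 2 or day 7 replicate 3. Those fits called 1.6% to 2.44% of all genes, where all libraries gave 7.05%. The 2 genes that rose, Hc and Cpn2, were weakly expressed. Hc, which encodes C5, was at 3.93, 3.73 and 1.04 CPM at day 7 and 0.168, 0.455 and 0.635 CPM at day 0 (log2 fold change 2.79 ± 0.73, edgeR adjusted p = 0.0416). Cpn2, a subunit of carboxypeptidase N, which inactivates C3a, was at 0.526, 0.751 and 1.39 CPM at day 7 and 0.0746, 0 and 0.0794 CPM at day 0 (3.98 ± 0.72, edgeR adjusted p = 0.0121). The call of Cpn2 held in all 6 fits without a library of these days, and that of Hc was kept in 1 of them, without day 7 replicate 3.

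C1rb and C1s2, close copies of the C1 proteases C1ra and C1s1, had the largest falls at day 7 against day 0, and these rest on 2 libraries. C1rb reached 6.55 CPM in day 0 replicate 2 and 8.52 CPM in day 0 replicate 3, against at most 0.892 CPM in each other library, and C1s2 was at 21.0 and 31.4 CPM there, against at most 1.45 CPM. Day 0 replicate 1 thus lay with the later days, and the libraries of day 7 and day 0 overlapped. C1ra and C1rb are 97.9% identical over 2431 bases and C1s1 and C1s2 95.9% identical over 2643 bases, so their separate values are uncertain. Summed, C1s1 and C1s2 were at 412, 332 and 215 CPM at day 7 and 301, 266 and 401 CPM at day 0, which overlap. C1ra and C1rb were at 173, 125 and 98.5 CPM at day 7 and 184, 201 and 299 CPM at day 0, which do not.

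At day 1 against day 0, Masp1, a protease of the lectin pathway, averaged 24.3 ± 3.69 CPM at day 1 and 9.99 ± 5.59 CPM at day 0 and rose (log2 fold change 1.28 ± 0.35, edgeR adjusted p = 0.0445). Colec11, a collectin of the same pathway, averaged 1.37 ± 0.445 CPM at day 1 and 3.60 ± 0.65 CPM at day 0 and fell (-1.39 ± 0.31, edgeR adjusted p = 0.0230). Neither overlapped between the days. Leaving out 1 library of these days in turn, Masp1 was called in 1 of 6 fits and Colec11 in 2 of 6. Both calls were lost without day 0 replicate 2, day 0 replicate 3, day 1 replicate 1 or day 1 replicate 2. Those fits called 0.19% to 1.79% of all genes, where all libraries gave 7.58%. C1s2 was the other gene that fell.

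At day 7 against day 1, 7 of the 42 fell and 4 rose, beside 8.59% of all genes lower and 5.75% higher. Itgam, Fcna, Cfp, Masp1 and C5ar1, a receptor for C5a that is shown in the plot, were among those that fell. C5ar1 was picked with its values in view and was at 31.8, 22.1 and 24.0 CPM at day 7 and 68.2, 57.7 and 67.6 CPM at day 1, with no overlap (log2 fold change -1.31 ± 0.21, edgeR adjusted p = 0.00202). Hc, Cpn2 and Colec11 were among those that rose.

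Of the genes edgeR called in no comparison of 2 days, the 2 most abundant were taken from each group. They were C1s1 and C1ra among starters and C7 and C8g in the terminal pathway. Among regulators they were the C1 inhibitor Serping1 and the chaperone clusterin (Clu), and among receptors the integrin chain Itgb2 and Cd93. The F test over all 5 days called 14 of the 42, beside 13.9% of all genes, and Itgb2 was among these 14. Serping1 was at 578, 549 and 290 CPM at day 7 and 681, 636 and 780 CPM at day 0 (log2 fold change -0.57 ± 0.26, edgeR adjusted p = 0.180). C7 was at 104, 114 and 20.8 CPM at day 7 and 310, 291 and 196 CPM at day 0 (-1.74 ± 0.71, edgeR adjusted p = 0.136). Serping1 and C7 had every day 7 library below every day 0 library. C1s1 was at 411, 331 and 214 CPM at day 7 and 301, 245 and 370 CPM at day 0 (0.06 ± 0.25, edgeR adjusted p = 0.888), with overlap.

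The genes most like each member over the 15 libraries were found by the root mean square (RMS) difference of log2 CPM after removal of each gene's mean, among 12452 genes with a mean of at least 5 CPM. This is a description, since all genes share the libraries and their scaling. The C1q chains were close to each other, at 0.08 for C1qb and C1qc, 0.10 for C1qa and C1qc and 0.12 for C1qa and C1qb, where each chain's own RMS deviation was 0.43 to 0.49. Among the 3 nearest to each chain was also Unc93b1, which carries nucleic acid sensing Toll-like receptors to endosomes, at 0.11 to 0.12, and for C1qb it and Pld4 (0.12) took the places after C1qc. C2 was nearest to Serping1 and Prkcb at 0.16 and Steap3 at 0.17.

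The other members had no neighbour as close. C3 was nearest to Themis2 (0.25), Pik3ap1 (0.26) and Nfam1 (0.30), and Cfb to Cd300ld3 (0.25), Pirb (0.28) and Themis2 (0.28). C4b was nearest to F13a1, a resident macrophage marker here, and to Naaa and Podn, all at 0.23. Cfd was nearest to Adhfe1 (0.22), Slc1a5 (0.23) and Kcnab2 (0.23), and C3ar1 to Zc3h12d (0.22), 9030617O03Rik (0.27) and Apobec1 (0.28). Between members, pairs outside C1q were 0.28 (C1qb and C2) or more apart, and Cfb and Cfd, the partners of the alternative pathway, were the furthest apart, at 0.61.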

How the data were processed

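RNA of skin was sequenced in 15 libraries, 3 per day. The authors deposited estimated counts per gene and library; the submitters' processing notes name kallisto 0.43, and its index, annotation and build are not given in the sources used. The deposited estimated counts were whole numbers, so rounding changed none. After removal of 26 rows with date-like names (0.155% to 0.179% of the counts), 30281 named genes were left, and 17136 passed edgeR's filterByExpr with a minimum count of 10. Totals were 38062562 to 60450396 per library.

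Days were compared with edgeR 4.0.16 (R 4.3.3; TMM scaling, robust quasi-likelihood fit on all 15 libraries), two-sided, with Benjamini-Hochberg adjustment over all tested genes and calls at an adjusted p under 0.05. Values are TMM-scaled CPM, mean ± SD over 3 libraries, and log2 fold changes are given ± SE. The fits were tested on simulated data for day 7 against day 0. They recovered 42.2% of 2-fold changes and 77.4% of 4-fold changes, with false calls at 5.6% and 2.5%. Each rate came from a single draw with 200 changed genes picked at random over all levels, so it need not hold for the members. A gene that did not pass may thus still have changed by 2-fold. The alternatives were DESeq2 1.42.0, limma 3.58.1 (voom), RLE scaling, library totals without TMM, no low-count filter, a replicate block, only the 6 libraries compared, and each library left out. The members and lists were chosen with earlier results of these data known.

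Besides the members, genes of the wider list were named where edgeR called them, all where a comparison called at most 5 and otherwise the 4 with the largest fold change, with the 2 most abundant uncalled genes of each of its 4 groups and the 3 genes most like each member; exceptions are stated, and the values of 1 called gene are not reported here. Hair keratins were listed after their values were seen. Of 105 library pairs, 0 were identical.

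The labels number the replicates 1 to 3 in each day without saying what a number means. Deviations from the day means of same-numbered day 7 and day 0 libraries correlated at 0.14, 0.13 and 0.41, all over 0.1, so the replicate block is printed beside that comparison. In all, 12 of 24 such pairs were over 0.1 (range -0.73 to 0.49). The best match of a library had the same number in 4 of 15 libraries.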

Additional observations from a re-analysis of the deposited data

How the results depend on the processing

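The counts of called members moved as follows. At day 1 against day 0 (0 called) DESeq2 and a fit on only the 6 libraries compared gave 1 each, and leaving out single libraries 0 to 2. In that order these called 16.3%, 9.4% and 0.19% to 13.8% of all genes. At day 7 against day 0 (5 called) DESeq2 gave 7, beside 16.5% of all genes, where edgeR called 7.05%. There limma-voom and the fit without the low-count filter gave 4 each, both without C1qa (limma-voom adjusted p = 0.054, edgeR adjusted p = 0.0565). They called 6.7% and 3.91% of all genes. The replicate block gave 1 and the 6 libraries alone 0, with 4.8% and 0.395% of all genes called. The fit without the hair-keratin-rich libraries gave 2, beside 4.54% of all genes, and leaving out single libraries 0 to 6, beside 1.6% to 11.9%. At day 7 against day 1 (3 called) library totals without TMM and the fit without the low-count filter gave 2 each. They called 13.3% and 8.43% of all genes. Both lacked C3 (edgeR adjusted p = 0.0566 and 0.061). The 6 libraries alone gave 1, beside 7.36% of all genes, and leaving out single libraries 1 to 3, beside 6.51% to 13.4%. The F test over days (1 called) gave 8 with DESeq2, 2 with limma-voom, 3 without the hair-keratin-rich libraries and 0 to 5 without single libraries. In that order 34.2%, 12.8%, 22.1% and 6.74% to 17.1% of all genes were called, where all libraries gave 13.9% by edgeR. The fits without the hair-keratin-rich libraries and with day 0 replicate 1 alone were chosen after seeing the data; the second has 1 library at day 0, assumed to vary like the other days, and called 79 genes in all at day 7 against 1208 with all libraries, so its counts say nothing about stability. The ratio of C1q to general macrophage markers at day 7 was 67.8% of that at day 0, and 87.1% with Lyz2 left out of the marker sum.

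Of the wider list, day 1 against day 0 (3 called) gave 8 with DESeq2, 6 on 6 libraries and 0 to 5 without single libraries. In that order 16.3%, 9.4% and 0.19% to 13.8% of all genes were called, where the main fit gave 7.58%. Day 3 against day 0 (0 called) gave 4, 2 and 0 to 3 with DESeq2, on 6 libraries and without single libraries. The shares of all genes were 5.5%, 1.23% and 0% to 3.61%, and 0.788% in the main fit. Day 5 against day 0 (3 called) gave 10 with DESeq2, 1 with the replicate block, 0 on 6 libraries and 0 to 7 without single libraries. Of all genes 6.77%, 0.158%, 0% and 0% to 2.84% were called in that order, and 0.502% in the main fit. Day 7 against day 0 (10 called) gave 17 with DESeq2, 5 with the replicate block, 2 on 6 libraries and 4 to 11 without single libraries. Of all genes 16.5%, 4.8%, 0.395% and 1.6% to 11.9% were called in that order, and 7.05% in the main fit. Day 3 against day 1 (0 called) gave 1 with DESeq2, beside 2.71% of all genes. Day 5 against day 3 (0 called) gave 2 without the low-count filter and 6 with DESeq2, beside 0.038% and 3.03%. Day 7 against day 1 (11 called) gave 7 on 6 libraries and 5 to 11 without single libraries. There 7.36% and 6.51% to 13.4% of all genes were called, and 14.3% in the main fit. Smaller moves of the wider list are not all given, and its counts with day 0 replicate 1 alone are left out. At day 7 against day 0 the smaller moves were 7 with limma-voom, 9 without the low-count filter and 11 with library totals without TMM. Those fits called 6.7%, 3.91% and 6.27% of all genes.

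All 135 alternative values of the members at day 7 against day 0 kept their sign. Of 1017 single-gene values 33 reversed, in 10 of 72 results, none of them called by edgeR with all libraries or in the alternative. With day 0 replicate 1 alone, these were Cfb (0.41) and C3ar1 (0.20) at day 1, C1qa (0.50), C1qb (0.43), C1qc (0.40) and C2 (0.14) at day 3 and C3ar1 at day 5 (0.16, and 0.22 without the hair-keratin-rich libraries), all against day 0. C3 at day 1 against day 0 was 0 with RLE scaling, without the filter and with DESeq2, 0.02 with limma-voom and 0.01 with the replicate block, and Cfb there was 0.01 with limma-voom. Leaving out single libraries gave -0.15 to 0.08 (C3), -0.24 to 0.34 (Cfb) and -0.40 to 0.19 (C3ar1) at day 1, -0.41 to 0 (C1qa), -0.24 to 0.10 (C1qb), -0.28 to 0.05 (C1qc) and -0.24 to 0.02 (C2) at day 3, -0.35 to 0.22 (C3ar1) at day 5, -0.38 to 0.09 (C2, day 7 against day 5) and -0.31 to 0.05 (C1qa, day 7 against day 1). The cause was not tested. The members had 1444 counts or more per library, and each day had 3 libraries.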
